A study of Rattus norvegicus with 6 samples.

Results

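Oxidative phosphorylation needs proteins made from 2 genomes, and the transcripts of both were measured in rat vascular smooth muscle cells (VSMCs) cultured with and without empagliflozin. The members were the rows of the authors' gene table that carry the KEGG term for oxidative phosphorylation or a symbol beginning with Mt-, leaving out symbols beginning with Atp6v. They numbered 98 of 13526 listed genes, and all 98 passed the filter of a mean of at least 1 TPM, so all were tested. Of these, 13 lie on the mitochondrial chromosome (MT) and 85 are nuclear.

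The cells were primary VSMCs grown from the media of WT rat thoracic aorta, and every sample was kept in osteogenic media (OM), which holds 10 mM β-glycerophosphate and 3.5 mM CaCl2. The OM plus EMPA group, 3 samples, also received 1 μM empagliflozin, an inhibitor of the glucose transporter SGLT2, and the OM group, 3 samples, did not. Treatment lasted 5 days by the labels and less by the study's legend, and the titles write Pi for the medium although the treatment text describes OM. Cells in ordinary medium were not analysed here, and nothing states whether the 3 samples were separate cultures or separate animals. The p-values therefore cover the variation among these samples only, and that variation may be technical.

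Values are TPM, a measure of transcript abundance that is corrected for transcript length, and they sum to 997954 to 998293 in each library, so the sequencing depth behind them is unknown. Of 8 smooth muscle markers, 7 were in the table and tested. Their summed level was 2258 to 2742 TPM in the OM libraries and 3117 to 3605 TPM in the OM plus EMPA libraries, and 5 of the 7 were called higher (Acta2, Tagln, Cnn1, Cald1 and Lmod1), while Smtn and Myh11 (log2 fold changes 0.15 and -0.17) were not called. Fibroblast markers summed to 10236 to 11057 TPM in the OM group and 9951 to 10358 TPM in the OM plus EMPA group, with 2 of 4 called lower (Dcn and Pdgfra), while Lum and Col1a1 (log2 fold changes -0.09 and 0.23) were not called. Of 6 leukocyte markers, Cd68 (called lower) and Cd14 were the only ones listed, at 40.5 to 44.3 and 30.1 to 40 TPM summed, and of 6 endothelial markers only Egfl7 was, at 19.6 to 22.3 TPM. Of 6 striated muscle markers, Tnnt2 and Actn2 were listed and summed to 3.64 to 4.07 TPM. A larger share of such cells and more RNA per cell cannot be told apart in bulk samples, and the part of these marker shifts in the results below was not tested.

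In the inner mitochondrial membrane, complexes I, III and IV pass electrons to oxygen and pump protons, complex II feeds in electrons from succinate, and complex V uses the returning protons to make ATP. Complex II is made from nuclear genes alone, whereas each of the others joins nuclear subunits to a few subunits encoded by mitochondrial DNA. The mitochondrial genome is transcribed from both strands as long precursors, which are cut into separate mRNAs, ribosomal RNAs (rRNAs) and tRNAs. Nuclear subunits are transcribed singly, made in the cytosol and imported.

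The 2 genomes differed in level first. The 13 mitochondrial mRNAs had mean levels over the 6 libraries of 1042 TPM (Mt-nd5) to 23443 TPM (Mt-co1), with a median of 3836 TPM. The 85 nuclear members reached at most 767 TPM (Cox4i1), with a median of 122 TPM. The ranges did not overlap, so the lowest mitochondrial mRNA lay above the highest nuclear one. Within complex I, the 7 mitochondrial mRNAs had a median level of 3377 TPM and the 37 nuclear members 114 TPM. In complex IV the medians were 10682 TPM for 3 mitochondrial and 216 TPM for 11 nuclear members. Complex V had medians of 13888 TPM for 2 and 264 TPM for 14 members, complex III had 3679 TPM for its only mitochondrial mRNA and 141 TPM for 8 nuclear members, and the 4 nuclear genes of complex II had a median of 87 TPM.

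**Figure D1:**
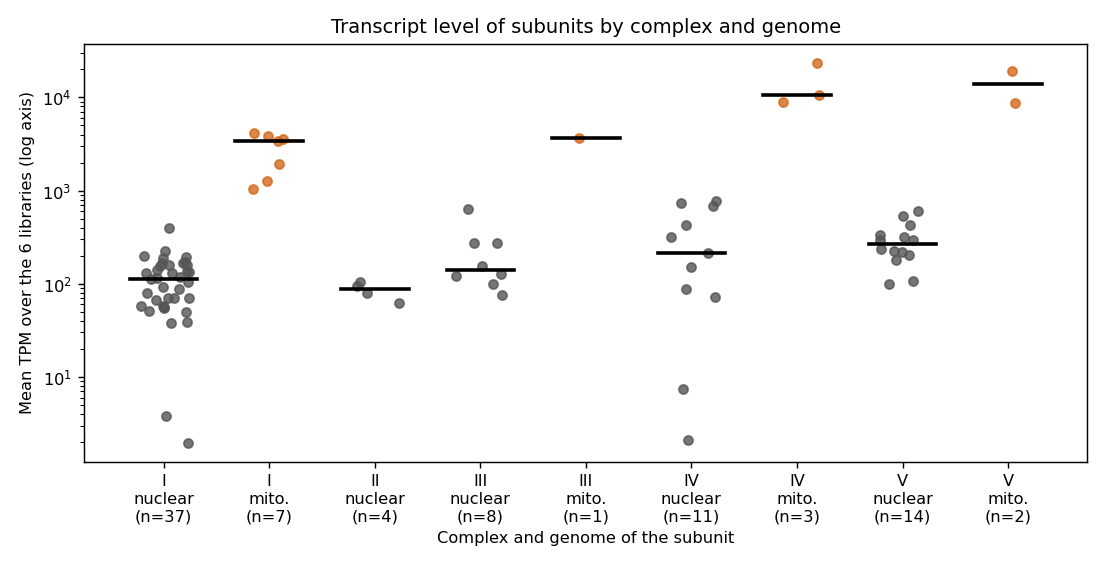
Mean TPM over the 6 libraries (log axis) of each member sorted to complexes I to V, by complex and genome, with nuclear genes in grey, mitochondrial genes in orange, 1 point per member and a black bar at each median. Members sorted by KEGG term alone, such as Rnf139 and Taf3, are included. The mitochondrial points lie at 1042 TPM and above, and the nuclear points at 767 TPM and below.

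With empagliflozin, 7 of the 13 mitochondrial mRNAs rose (limma on log2(TPM + 1), Benjamini-Hochberg adjusted p of at most 0.05 over 12564 genes), 0 fell and 6 did not pass the test. Over all tested genes 2.06% were called higher and 4.86% lower. Each of the 13 was higher in every OM plus EMPA library than in every OM library, a separation that 7.85% of all tested genes showed. Their log2 fold changes ran from 0.11 to 0.51 with a median of 0.39, against a median of -0.05 over all tested genes. An unadjusted p under 0.05 was reached by 12 of the 13, and by 24.1% of all tested genes.

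The count of 7 depended on single libraries, while the median changed less. It was 1 without OM plus EMPA replicate 1 or 3, 0 without either OM replicate 3 or OM plus EMPA replicate 2, 2 without OM replicate 1 and 9 without OM replicate 2, each from a fit with fewer samples. Over all tested genes, the count called higher fell in each of those fits, to between 80 and 216 from 259. It fell without OM replicate 2 too, where the mitochondrial count rose. The median log2 fold change of the mitochondrial mRNAs stayed between 0.30 and 0.45 in the same fits. Without OM replicate 1, the log2 fold change was 0.20 for Mt-atp8, 0.07 for Mt-co1 and 0.16 for Mt-nd3, against 0.35, 0.11 and 0.25 with all libraries.

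**Figure D2:**
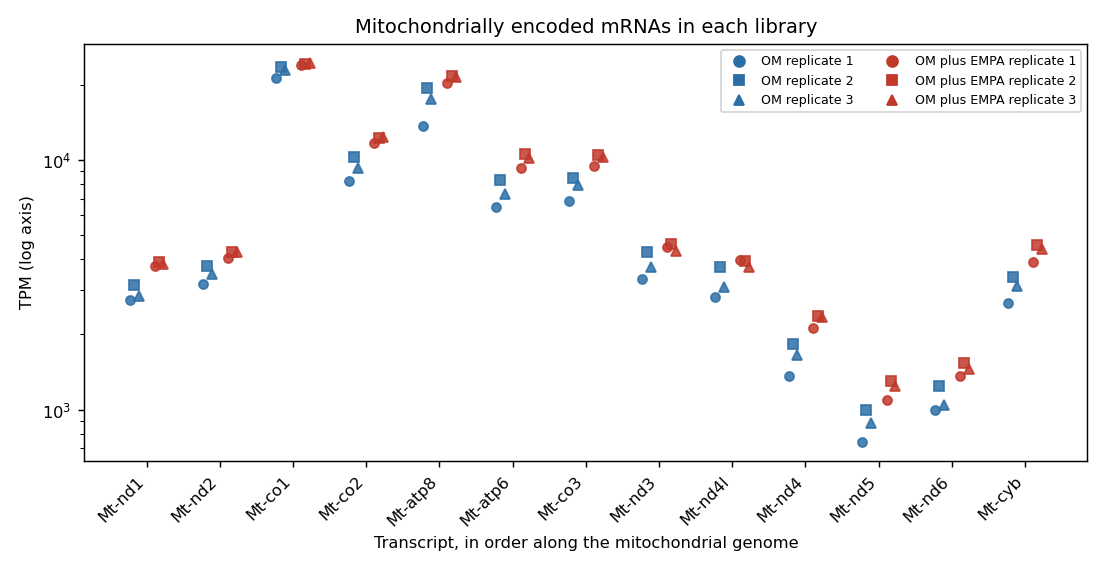
TPM (log axis) of the 13 mitochondrially encoded mRNAs in each library, in order along the mitochondrial genome, with OM in blue, OM plus EMPA in red and a marker shape per replicate number. All 3 red points lie above all 3 blue points for each of the 13 transcripts, by little for Mt-co1, and OM replicate 1 is the lowest point for each.

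Complex I, which takes electrons from NADH, holds 7 mitochondrially encoded subunits, and 4 of these rose. Mt-nd1, which helps form the quinone site (MT, bases 2740 to 3694 in the authors' table), was at 3764, 3887 and 3846 TPM in the OM plus EMPA libraries and 2746, 3163 and 2856 TPM in the OM libraries. The groups were clearly apart, and its log2 fold change was 0.39 (adjusted p = 0.0141 from limma, SE 0.06), the smallest adjusted p among the 13. Mt-nd4, a proton-pumping subunit, was at 2121, 2373 and 2352 TPM with empagliflozin and 1364, 1826 and 1657 TPM without it. It had the largest change of the 13, at 0.51 (adjusted p = 0.0312 from limma, SE 0.10).

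Mt-nd5, at the far end of the membrane arm, was at 1087, 1304 and 1241 TPM against 740.3, 993 and 886 TPM (log2 fold change 0.48 with an SE of 0.11, adjusted p = 0.0449 from limma). Mt-nd6 is the only mRNA on the other strand of the mitochondrial DNA (bases 13543 to 14061, minus strand). It was at 1356, 1535 and 1448 TPM with empagliflozin and 994, 1246 and 1047 TPM without it, and rose by 0.40 (adjusted p = 0.0378 from limma, SE 0.09). The increase was thus measured on rows of both strands, but Mt-nd5 and Mt-nd6 overlap at their ends and the counting is not stated to use strand, so reads in the overlap cannot be assigned.

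The other complex I mRNAs, Mt-nd2, Mt-nd3 and Mt-nd4l, encode membrane subunits and did not pass the test. Mt-nd2 had a log2 fold change of 0.27 (95% interval 0.10 to 0.44, adjusted p = 0.0673 from limma). Mt-nd3 was at 4325 to 4617 TPM with empagliflozin and 3325 to 4273 TPM without it, a log2 fold change of 0.25, and Mt-nd4l was at 3741 to 3961 and 2832 to 3739 TPM, a log2 fold change of 0.28. For both, the highest OM library (replicate 2) came close to the lowest OM plus EMPA library. Mt-nd4l shares its last bases with the start of Mt-nd4.

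Complex III passes electrons to cytochrome c, and its only mitochondrially encoded subunit is cytochrome b. Mt-cyb (bases 14136 to 15278) was at 3895, 4582 and 4412 TPM in the OM plus EMPA group and 2683, 3388 and 3113 TPM in the OM group. It rose by 0.49 on the log2 scale (adjusted p = 0.0291 from limma, SE 0.10).

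Complex IV, cytochrome c oxidase, reduces oxygen, and its 3 catalytic core subunits are mitochondrially encoded. Mt-co2, which receives electrons from cytochrome c, rose from 9282 ± 1013 to 12082 ± 359 TPM (SD, n = 3; log2 fold change 0.39 with an SE of 0.09, adjusted p = 0.0483 from limma). Mt-co3, at 9423, 10463 and 10270.3 TPM against 6869.6, 8482 and 7966 TPM, had nearly the same log2 fold change, 0.38, and lay just past the threshold (adjusted p = 0.0547 from limma). Mt-co1, which holds the site where oxygen is reduced, was the most abundant of all members and had the smallest log2 fold change of the 13. It was at 24094, 24282 and 24495 TPM with empagliflozin and 21349.6, 23494 and 22943 TPM without it, a log2 fold change of 0.11 (95% interval -0.08 to 0.30, adjusted p = 0.476 from limma). In the authors' table the Mt-co1 row runs from base 5323 to 7689 and so covers all of Mt-co2 (7006 to 7689), which means that how the reads of the shared stretch were divided bears on both values.

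Complex V, ATP synthase, has 2 mitochondrially encoded subunits whose genes overlap (Mt-atp8, 7758 to 7961; Mt-atp6, 7919 to 8599). Mt-atp6, part of the proton channel, was at 9256, 10596 and 10229 TPM against 6492, 8328 and 7337 TPM. It rose by 0.45 on the log2 scale (adjusted p = 0.0448 from limma, SE 0.10). Mt-atp8, a short mRNA, was at 20422 to 21762 TPM with empagliflozin and 13686 to 19360.4 TPM without it, with a log2 fold change of 0.35 (95% interval 0.04 to 0.65, adjusted p = 0.162 from limma).

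The 13 mRNAs moved together across libraries as well as between groups. Within the OM group, the order from low to high was replicate 1, 3, 2 for 13 of 13, and for 17.6% of all tested genes. OM replicate 2 was the highest OM library for 13 of 13, and for 33.7% of all tested genes. OM replicate 1 was also the lowest of the 6 libraries for 13 of 13. Each of the 13 separated the groups, so its lowest library had to be an OM library. The 14.3% of all tested genes lowest in OM replicate 1 is therefore not a like share. The 13 come from shared precursors and are not separate observations. With empagliflozin, replicate 2 was the highest library for 10 of 13. The summed smooth muscle markers had the same libraries at their extremes. They summed to 2258 TPM in OM replicate 1, 2742 TPM in OM replicate 2 and 3605 TPM in OM plus EMPA replicate 2. Tagln made up most of the sum, with 1412 TPM in OM replicate 1. Acta2, Tagln, Cald1 and Lmod1 each had these extremes, and the other markers did not. Cnn1 was highest in replicate 3 of each group, Smtn was lowest in OM replicate 3, and Myh11 was lowest in OM plus EMPA replicate 2.

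The 2 large non-coding rows of the mitochondrial genome went the other way. AY172581.9 (bases 68 to 1025), annotated in the table as a structural constituent of the ribosome, lies where the small-subunit rRNA gene does. It was at 2136, 1626 and 1952 TPM with empagliflozin and 3961, 3136 and 3263 TPM without it, and fell by 0.86 on the log2 scale (adjusted p = 0.00802 from limma, SE 0.12). AY172581.24 (bases 1094 to 2664), at the place of the large-subunit rRNA gene, was at 985, 944 and 953 TPM against 1309.8, 1248 and 1342 TPM, a fall of 0.44 (adjusted p = 0.00383 from limma, SE 0.05). Both calls held in all 6 fits that left out 1 library. These rows are not members, and neither rRNA depletion nor poly(A) selection is stated for the libraries.

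**Figure D3:**
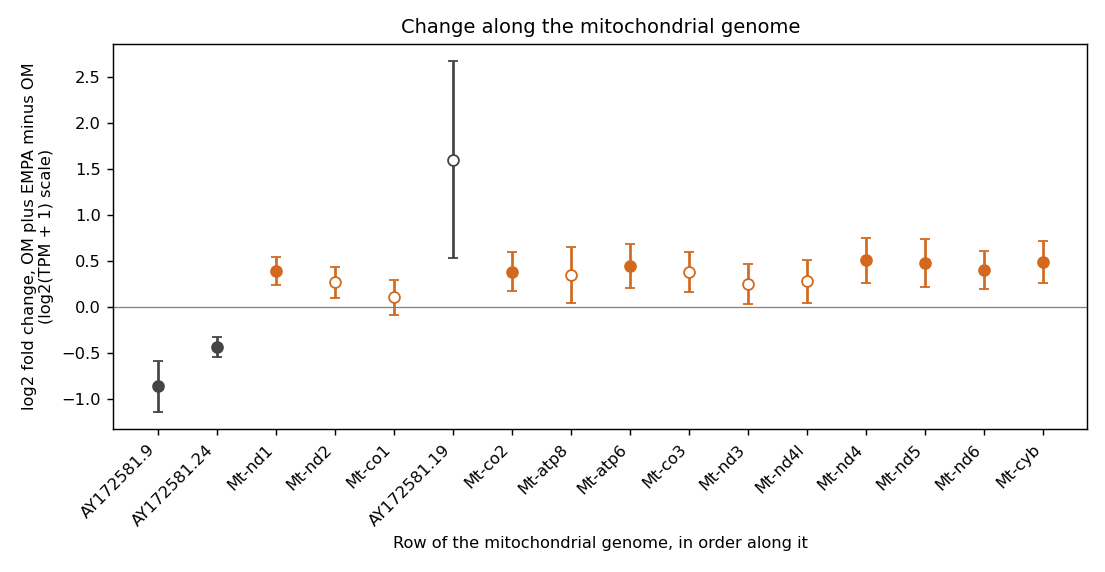
Log2 fold change (OM plus EMPA minus OM, log2(TPM + 1) scale) of the 16 rows of the mitochondrial genome in order along it, with 95% intervals from limma, the 13 mRNAs in orange, other rows in grey, and filled points for an adjusted p of at most 0.05. The 2 rRNA rows at the left lie below 0, at -0.86 and -0.44, and the 13 mRNAs lie above it, between 0.11 and 0.51.

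As a share of the library, the 13 mRNAs took 9.98%, 10.6% and 10.5% of TPM with empagliflozin and 7.47%, 9.25% and 8.52% without it. The 2 rRNA rows took 0.313%, 0.257% and 0.291% against 0.528%, 0.439% and 0.461%. The ratio of the first sum to the second was 31.9, 41.2 and 36 in the OM plus EMPA libraries and 14.1, 21.1 and 18.5 in the OM libraries, so the groups did not overlap. Within the OM group, the library with the lowest mRNA share, replicate 1, had the highest rRNA share, and replicate 2 had the reverse. How rRNA was handled in library preparation is not stated, and its part in the rRNA share and in this ratio was not tested.

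The nuclear members showed no such shift in sum. Their 85 transcripts took 1.51%, 1.47% and 1.43% of TPM with empagliflozin and 1.54%, 1.44% and 1.47% without it, and the groups overlapped. The ratio of mitochondrial to nuclear TPM was 6.6, 7.23 and 7.31 in the OM plus EMPA libraries and 4.86, 6.42 and 5.81 in the OM libraries. By complex, its group means were 5.05 ± 0.21 against 4 ± 0.598 for complex I, 2.47 ± 0.301 against 1.73 ± 0.269 for complex III, 13.5 ± 0.856 against 11.4 ± 1.26 for complex IV and 7.6 ± 0.423 against 6.01 ± 1.09 for complex V (SD, n = 3). The library values of the ratio did not overlap between groups in complexes I, III, IV and V, although the gap was narrow in complex IV (12.6 against 12.4) and complex V (7.11 against 7.05).

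**Figure D4:**
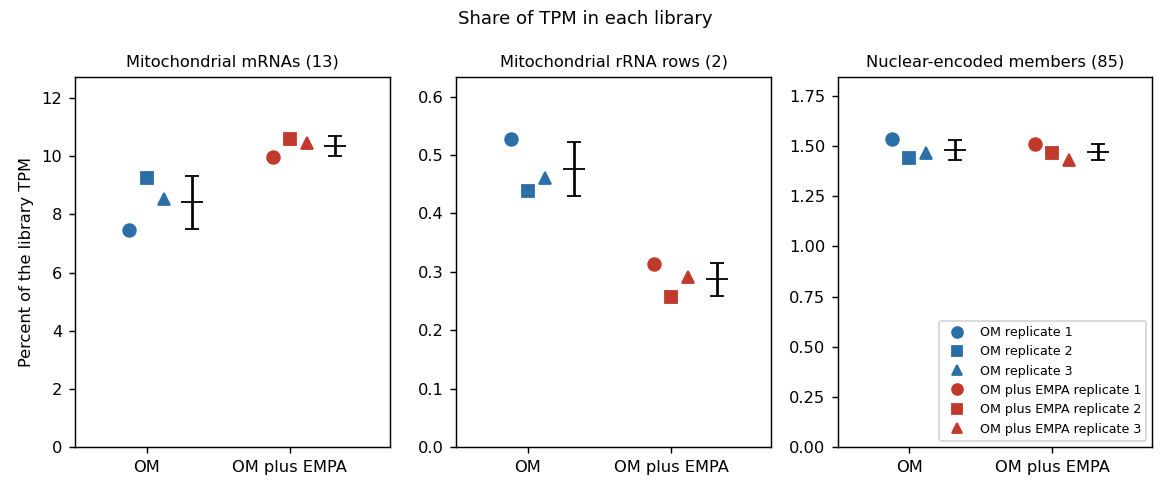
Percent of each library's TPM taken by the 13 mitochondrial mRNAs, the 2 mitochondrial rRNA rows and the 85 nuclear members, each on its own axis from 0, with 1 point per library and the mean ± SD of each group (n = 3) beside it. The mRNA share is higher with empagliflozin (9.98% to 10.6% against 7.47% to 9.25%), the rRNA share is lower (0.257% to 0.313% against 0.439% to 0.528%), and the nuclear shares overlap.

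Of the 85 nuclear members, 0 rose, 1 fell (Cycs) and 84 did not pass limma's test, and 11 had an unadjusted p under 0.05, a smaller share than the 24.1% of all tested genes. Their median log2 fold change was -0.01, with 37 above 0 and 48 below (65.1% of all tested genes were below), and 81 of 85 lay within 0.2 of 0. Nuclear medians were -0.01 for complex I, -0.04 for complex II, -0.04 for complex III, 0.01 for complex IV and -0.01 for complex V. Median-ratio scaling of the TPM turned the overall nuclear median to 0.05, moved the median of all genes from -0.05 to 0.00 and gave 1 nuclear call higher (Cox5a). The upper limit of the 95% interval lay below 0.39, the mitochondrial median, for 81 of the 85. The other 4, among them Cox4i2, AABR07015346.1 and ENSRNOG00000065095, were low or uneven between libraries and are too imprecise to place.

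**Figure D5:**
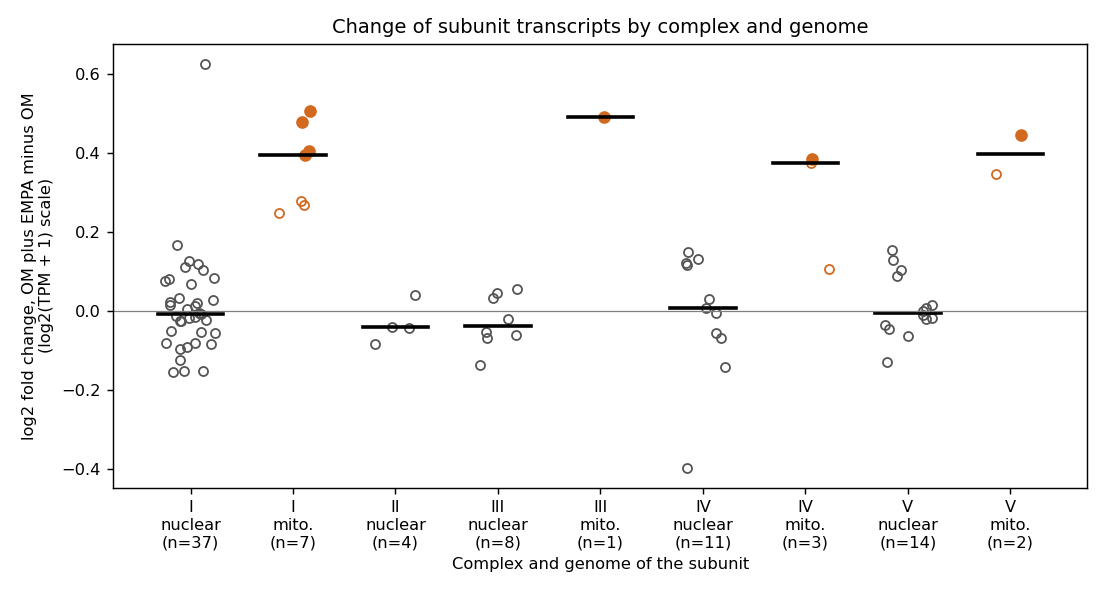
Log2 fold change (OM plus EMPA minus OM, log2(TPM + 1) scale) of each member sorted to complexes I to V, by complex and genome, with nuclear genes in grey, mitochondrial genes in orange, filled points where limma's adjusted p was 0.05 or less and a black bar at each median. Members sorted by KEGG term alone, such as Rnf139 and Taf3, are included. Nuclear medians lie between -0.04 and 0.01 and mitochondrial ones between 0.38 and 0.49.

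Cycs, which encodes cytochrome c, the carrier between complexes III and IV and a trigger of apoptosis when released, was the only nuclear member called. It was at 176, 158 and 165 TPM in the OM plus EMPA libraries and 206, 207 and 196 TPM in the OM libraries, so the groups were apart. It fell by 0.29 on the log2 scale (adjusted p = 0.0181 from limma, SE 0.05). The call held in 2 of the 6 fits without 1 library, and its highest adjusted p there was 0.062, without OM replicate 1. A second row annotated as cytochrome c, ENSRNOG00000065095, ranged from 22.4 to 42 TPM with no separation of the groups, and reads of a near-identical copy could be split between the rows.

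Nuclear subunits of complex I were led by Ndufb4, an accessory subunit, at 368 to 387 TPM with empagliflozin and 393 to 419 TPM without it (log2 fold change -0.10, adjusted p = 0.215 from limma). Ndufa4, filed under complex I by KEGG but known as a subunit of complex IV, was at 170 to 180 TPM against 156 to 169 TPM (log2 fold change 0.10, 95% interval 0.00 to 0.21). Ndufa1, needed to assemble the membrane arm, had a log2 fold change of 0.17 (95% interval 0.00 to 0.33). The core subunits Ndufs1, Ndufs3, Ndufs7, Ndufs8, Ndufv1 and Ndufv2 had 33.9 to 123 TPM. Ndufa5 was low, at 2.88 to 5.03 TPM.

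All 4 subunits of complex II, succinate dehydrogenase, were measured. Sdha, which binds the flavin, was at 75.7 to 82.5 TPM with empagliflozin and 80.7 to 81.3 TPM without it. The iron-sulphur subunit Sdhb and the membrane anchors Sdhc and Sdhd had log2 fold changes of -0.04, 0.04 and -0.08. None of the 4 separated the groups, and their 95% intervals ran from -0.22 to 0.15 at the widest.

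Among the nuclear genes of complex III, Uqcrq, a small subunit, was the most abundant at 555 to 701 TPM with empagliflozin and 614 to 692 TPM without it. The Rieske iron-sulphur protein Uqcrfs1 had a log2 fold change of -0.07. Uqcrc1, a core subunit, was at 112, 117 and 120 TPM against 131, 122 and 132 TPM, lower in every library with empagliflozin, and did not pass the test (log2 fold change -0.14, adjusted p = 0.133 from limma). Its direction was the reverse of that of Mt-cyb, the mitochondrially encoded partner in the same complex. However, 22.5% of all tested genes were lower in every OM plus EMPA library. Of the 8 nuclear members of complex III, 3 had log2 fold changes above 0.

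The nuclear genes of complex IV included several with tissue-specific copies. The ubiquitous form Cox4i1 averaged 767 TPM, whereas its counterpart Cox4i2, known for expression in lung and under low oxygen, averaged 2.12 TPM, and the muscle form Cox7a1 was listed at a mean of 0.713 TPM and was not tested. Cox4i1 was at 770.1 to 781 TPM with empagliflozin and 725 to 792 TPM without it (log2 fold change 0.03, 95% interval -0.08 to 0.13). Cox6a1 and Cox6b1, at means of 687 and 429 TPM, had log2 fold changes of -0.06 and 0.01. Cox7a2l, which joins complexes III and IV into supercomplexes, was at 222, 243 and 217 TPM against 201, 204 and 209 TPM. Its groups were apart, and it did not pass the test (log2 fold change 0.15, adjusted p = 0.121 from limma).

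Among the nuclear genes of complex V, the catalytic subunit Atp5f1b was the most abundant and had the smallest change, at 615, 612 and 605 TPM against 623, 605 and 605 TPM (log2 fold change 0.00, 95% interval -0.09 to 0.09). The 3 nuclear genes for the same ring-forming c subunit differed in level, with means of 530.4 TPM for Atp5mc2, 336 TPM for Atp5mc3 and 98.9 TPM for Atp5mc1. Their log2 fold changes were 0.10, -0.13 and -0.04 (adjusted p = 0.182, 0.197 and 0.754 from limma). Atp5me, a membrane subunit, had a log2 fold change of 0.15 (adjusted p = 0.25 from limma, and 0.0431 without OM replicate 3).

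Over all nuclear members, 4 were higher in every OM plus EMPA library (Cox5a, Cox7a2l, Ndufa4 and Atp5mc2), where 7.85% of all tested genes were. Lower in every OM plus EMPA library were 7 (Cycs, Uqcrc1, Ndufa8, Ndufb4, Ndufs5, Atp5pf and Tcirg1), where 22.5% of all tested genes were. Cox5a, which was singled out after its values were seen, was at 154, 155 and 161 TPM against 142.5, 145 and 147 TPM.

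The KEGG term also brings in genes outside the 5 complexes. Tcirg1, a V-type proton pump subunit best known from osteoclasts, was at 93, 83.4 and 90.3 TPM against 111, 96.8 and 101 TPM (log2 fold change -0.21, adjusted p = 0.0948 from limma). Atp6ap1, an accessory protein of that pump, had a log2 fold change of -0.01. The heme-pathway genes Cox10 and Cox15, which serve complex IV, both had -0.09, and the pyrophosphatases Ppa1 and Ppa2 and the related phosphatase Lhpp had 0.02, 0.08 and -0.12. In 3 rows the symbol and the term name different genes. These are Rnf139 (the term of Ndufb9), Taf3 (the term of Atp5f1c) and Tctn2 (the term of a V-type pump subunit), which are close neighbours of those genes in the RefSeq table, and their log2 fold changes were -0.03, 0.02 and 0.03. The row AABR07015346.1, given as a Cox7a subunit, ranged from 1.78 to 16.6 TPM, and ENSRNOG00000062531, which has no symbol and carries the term of Ndufs6, had a log2 fold change of 0.08.

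Nuclear subunit genes are known to share sites for a few factors in their promoters, among them NRF-1 (gene Nrf1), GABP (Gabpa and Gabpb1), YY1 and the estrogen-related receptors. RefSeq promoters of 300 bases (build GRCr8, 250 before and 50 after the start) were matched by symbol to 72 of the 83 nuclear members with a symbol and searched for exact letters on both strands. The NRF-1 letters TGCGCATGC were in 5 of 72 (6.94%) and in 1.47% of 27457 RefSeq promoters. The GABP letters CCGGAAG were in 21 (29.2%) against 9.22%, the YY1 letters AAGATGGCG in 10 (13.9%) against 1.93%, and the receptor letters TCAAGGTCA in 2 (2.78%) against 0.412%. Among the promoters of 19005 protein-coding genes the shares were 1.77%, 11.2%, 2.29% and 0.353%. The 72 include Taf3 and Tctn2, whose rows carry the terms of other genes, and the Taf3 promoter held the GABP letters. Matches of different motifs did not overlap in any member. A match is a description of the letters and not a bound site.

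The 150 bases before the start are shown for Cycs, the only nuclear member called, and for Ndufa6 and Uqcrc1, which hold the NRF-1 letters, with matches that lie wholly inside the window in capitals. The windows are chr4:80984768-80984917 (minus strand), chr7:115750318-115750467 (minus strand) and chr8:118468073-118468222 (plus strand) of GRCr8.
Cycs: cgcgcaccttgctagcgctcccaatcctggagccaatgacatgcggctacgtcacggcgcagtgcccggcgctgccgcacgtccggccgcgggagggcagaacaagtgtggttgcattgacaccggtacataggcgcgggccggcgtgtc
Ndufa6: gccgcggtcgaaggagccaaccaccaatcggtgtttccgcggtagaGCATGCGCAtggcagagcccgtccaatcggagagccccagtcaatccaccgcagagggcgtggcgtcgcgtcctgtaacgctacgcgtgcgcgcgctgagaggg
Uqcrc1: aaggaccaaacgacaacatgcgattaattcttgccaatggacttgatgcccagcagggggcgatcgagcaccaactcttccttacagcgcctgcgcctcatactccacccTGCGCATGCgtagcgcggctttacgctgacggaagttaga
The Cycs window holds none of the 4 motifs as spelled here. Only exact letters were searched, so a site with a variant spelling would not be found, in this promoter or in others. Ndufa6 also holds the GABP letters farther upstream and the YY1 letters after its start, and Uqcrc1 holds YY1 letters that begin at the last base shown and run past its start. Ndufa6 had 168 to 186 TPM with empagliflozin and 153 to 179 TPM without it (log2 fold change 0.11, 95% interval -0.04 to 0.26).

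Of 10 regulators of mitochondrial biogenesis on the list, which include NRF-1, GABP and YY1, 8 were listed and 6 were tested, and 0 rose or fell (1 had an unadjusted p under 0.05). Nrf1 was at 16.3 to 17.1 TPM against 17.2 to 20.3 TPM (log2 fold change -0.16, adjusted p = 0.222 from limma), lower in every library with empagliflozin. Gabpa, Gabpb1 and Yy1 had log2 fold changes of -0.08, 0.11 and -0.08. The estrogen-related receptors were not analysed here. Tfam, which packages and helps transcribe mitochondrial DNA, was at 33.9, 33.5 and 30.8 TPM with empagliflozin and 35.9, 34.8 and 38.2 TPM without it. It was lower in every library with empagliflozin and did not pass the test (log2 fold change -0.15, adjusted p = 0.187 from limma). Of the 6 tested regulators, Nrf1 and Tfam were the 2 lower in every OM plus EMPA library, where 22.5% of all tested genes were. Ppargc1b, below the filter and not tested, was higher in every OM plus EMPA library (0.40 to 0.60 against 0.06 to 0.29 TPM). Such a separation was shown by 7.85% of all tested genes, and these values are near the floor. Perm1, also below the filter, overlapped between groups (0.36 to 0.69 against 0.54 to 1.06 TPM).

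Other mitochondrial gene lists gave few calls, and they are not separate from the members. The TCA cycle list holds Sdha, Sdhb, Sdhc and Sdhd, and the complex IV assembly list holds Cox10, Cox11 and Cox15. Tmem70 is counted under both complex I and complex V. Assembly factors had 0 higher and 0 lower in limma's test among 17 tested for complex I, 3 for complex II, 5 for complex III, 19 for complex IV and 6 for complex V, with unadjusted p under 0.05 for 2, 1, 0, 2 and 1 of them. Among 18 TCA cycle enzymes 0 were called and 4 had an unadjusted p under 0.05, and among 19 membrane and import proteins 0 were called and 4 did, shares near the 24.1% of all tested genes. Their median log2 fold changes were -0.04 and -0.06, near the -0.05 of all genes. Of 20 electron carrier and coenzyme Q genes, 1 fell, which was Cycs.

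The adenine nucleotide carriers, which exchange ATP for ADP across the inner membrane, did not pass the test. Slc25a4 was at 456 to 485 TPM against 435 to 446 TPM (log2 fold change 0.10, adjusted p = 0.187 from limma), and Slc25a5 had a log2 fold change of -0.07. Ucp2, an inner-membrane carrier of the uncoupling protein family, was at 24.7, 25.1 and 23 TPM with empagliflozin and 17.8, 19.4 and 17.8 TPM without it. It rose by 0.39 (adjusted p = 0.0137 from limma, SE 0.06). Without OM plus EMPA replicate 2 its adjusted p was 0.0575, and it was called in 4 of the 6 fits that left out 1 library.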

How the data were processed

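RNA-seq of 6 samples was analysed, 3 per group. The deposited table lists 13526 genes with the TPM of each sample, as the authors estimated them. Tools named in the submitters' processing notes, without their roles, are RSEM, HISAT2 2.0.5, DESeq2 and fastp. A genome build was not given in the sources used here. The same table and a second, shorter one hold the authors' log2 fold changes and the authors' p-values, with raw and adjusted values, none of which were used. Every column of per-sample values matched the label of 1 sample.

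Members were sorted into complexes by symbol and KEGG ortholog term, and into genomes by chromosome. The members, the gene lists and the tests were chosen with earlier results of these data known. Groups were compared with limma 3.58.1 (R 4.3.3) on log2(TPM + 1) over 12564 genes whose mean reached 1 TPM, with a trend of variance on mean, the group as the only term, 4 residual and 3.8 prior degrees of freedom, and Benjamini-Hochberg adjustment over all tested genes at 0.05. A fold change on this scale understates changes of low genes. TPM keep no depth, so no counting error can be given, and a large rise of some transcripts lowers the TPM of others. The pipeline was tested on simulated data. No batch is named in the labels. Sums, ratios and medians over members have no test.

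Named genes were every mitochondrial member, the nuclear members called, in each complex the most abundant nuclear member and the 2 with the largest changes, a list of paralogues, and called members of the other lists. Genes named beside these were picked after their values were seen, and 1 gene the rule takes is not reported here. Alternatives were other scalings, pseudocounts, filters and thresholds, a replicate block and each library left out. Promoters are from RefSeq tables of GRCr8, which was used for sequences and neighbours only. Python 3.11.15 with pandas 2.3.3, numpy 2.4.6 and matplotlib 3.10.9 was used.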

Additional observations from a re-analysis of the deposited data

Results flagged for a closer look

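AY172581.19, a 69-base row on the minus strand of the mitochondrial genome (bases 6865 to 6933) that the table annotates as a tRNA, is outside the comparisons of the report and had the largest difference of the 16 mitochondrial rows. It was at 86.1, 153 and 181 TPM with empagliflozin and 50.2, 20.6 and 78.2 TPM without it, a log2 fold change of 1.60 (SE 0.46, 95% interval 0.54 to 2.67) that did not pass the test (adjusted p = 0.0828 from limma). It lies inside the stretch of the Mt-co1 row, on the opposite strand, and the counting is not stated to use strand, so reads of the 2 rows cannot be told apart.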

How the results depend on the processing

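Of 48 named genes, 11 were called, and all 11 kept their direction under every alternative run. Of the 37 others, 11 changed sign under at least 1. The count of mitochondrial mRNAs called higher, 7, was 9 with median-ratio or upper-quartile scaling, 4 with no filter, 0 at an adjusted p of 0.01 and 0 to 9 with 1 library left out, and their median log2 fold change was 0.30 to 0.45 with 1 library left out. The count of nuclear members called higher, 0, was 1 with median-ratio and 1 with upper-quartile scaling (Cox5a in both) and 0 to 1 with 1 library left out (Atp5me without OM replicate 3). The count called lower, 1, was 0 at an adjusted p of 0.01, 0 among subunits of complexes I to V by symbol, which leaves out Cycs, and 0 to 1 with 1 library left out. The nuclear median of -0.01 was 0.0491 and 0.0541 with median-ratio and upper-quartile scaling. Over all tested genes, calls were 259 higher and 611 lower, against 393 and 380 with median-ratio scaling. Those calls numbered 449 higher and 951 lower with a replicate block. With 1 library left out they numbered 80 to 216 higher and 245 to 438 lower. A replicate block gave 9 mitochondrial mRNAs higher and 2 nuclear members lower (Cycs and Tcirg1). Same-numbered samples correlated at 0.0979, 0.162 and 0.0575 in their deviations from the group means, and differently numbered ones at -0.12 to 0.0153. Every sample thus correlated best with its own number, although weakly. The main fit did not take the numbers as pairs, and these values do not decide whether they are. The causes of these changes were not tested. TPM keep no depth, so no limit set by depth can be given.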

Other observations

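Genes that serve mitochondrial RNA and its translation were looked at after the values above were seen. Of 70 mitochondrial ribosomal protein genes (symbols beginning with Mrpl or Mrps and a number), 0 rose, 3 fell and 67 did not pass limma's test, with 62 of 70 log2 fold changes below 0 and a median of -0.09. Over all tested genes 4.86% were called lower, 65.1% had a log2 fold change below 0 and the median was -0.05, so the count called lower was near the background. The 3 were Mrps31, at 19.6, 22.1 and 20.3 TPM against 27, 27.4 and 28.2 TPM (log2 fold change -0.40, adjusted p = 0.0112 from limma), Mrpl43 (-0.27) and Mrpl49 (-0.20). With median-ratio scaling 2 were lower (Mrpl43 and Mrps31) and the median was -0.04, and 1 to 2 were lower with 1 library left out, Mrps31 each time.

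Among 24 rows for 23 genes of mitochondrial RNA synthesis, processing and decay, 0 rose and 3 fell, and 1 to 2 were lower with 1 library left out. Over all tested genes 4.86% were called lower. An unadjusted p under 0.05 was reached by 9 of the 24, and by 24.1% of all tested genes. Lower in every OM plus EMPA library were 10 of the 24, and 22.5% of all tested genes. Pnpt1, a mitochondrial exoribonuclease that is also known as an interferon-induced gene, was at 25.9, 28 and 29.9 TPM with empagliflozin and 38.1, 36 and 36.9 TPM without it (log2 fold change -0.40 with an SE of 0.06, adjusted p = 0.0126 from limma), and was called in all 6 fits without 1 library. Nsun4, which methylates the small-subunit rRNA and joins the ribosomal subunits, has 2 rows in the table. The higher one, at 14.6 ± 0.497 against 18.7 ± 0.568 TPM (SD, n = 3), had a log2 fold change of -0.34 (adjusted p = 0.0189 from limma) and was called in 2 of the 6 fits without 1 library, and the lower one, at 3.13 ± 0.0987 against 3.1 ± 0.431 TPM, had 0.01 (adjusted p = 0.958 from limma). Trmt10c, a subunit of the enzyme that trims tRNAs at their 5′ end, had a log2 fold change of -0.27 (adjusted p = 0.0471 from limma), and was called in 0 of the 6 fits without 1 library and not with any of the 3 other scalings, no filter or the replicate block. The mitochondrial RNA polymerase Polrmt was at 4.36 to 5.19 TPM with empagliflozin and 4.5 to 5.16 TPM without it, and its groups overlapped. The mRNA-stabilising protein Lrpprc was at 32 to 33.5 TPM against 33.9 to 35.4 TPM (log2 fold change -0.08, adjusted p = 0.355 from limma).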
